A study of Homo sapiens with 6 samples.

Results

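Genes of endoplasmic reticulum (ER) protein folding and of the unfolded protein response were followed in IMR32 cells treated with CBR-470-1. The genes were chosen by name, as ER chaperones, disulfide isomerases, factors of ER-associated degradation (ERAD) and the IRE1 and ATF6 sensors with their target XBP1. All 33 were found among the 35473 gene rows of the deposited table. IMR32 is a human neuroblastoma cell line. The CBR-470-1 group held 3 libraries from cells given 5 µM of the compound for 24 h, and the DMSO group held 3 libraries from cells given the vehicle alone for the same time. Both groups were cultures of the same line, with independent biological replicates per the series' design text. The series title places the study in glycolysis and the KEAP1-NRF2 pathway. The comparison here shows whether the ER folding genes differed between treated and vehicle cells.

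The ER lumen folds secreted and membrane proteins with the Hsp70 protein HSPA5, known as BiP, its J-domain co-chaperones, the lectins calnexin and calreticulin, and disulfide isomerases. Proteins that fail to fold are drawn back to the cytosol and degraded by ERAD. When unfolded proteins build up, the membrane sensors IRE1 (ERN1), ATF6 and PERK (EIF2AK3) start the unfolded protein response, in which cleaved ATF6 and spliced XBP1 raise transcription of chaperone and ERAD genes. HSPA5, DNAJB9, HERPUD1 and SDF2L1 are among the standard transcriptional readouts of that response. IRE1 activates XBP1 by splicing its mRNA, which values summed over a gene cannot show.

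ATF6 and XBP1 act through promoter elements of known sequence, so RefSeq promoter windows on GRCh38.p14, from 250 bases before to 50 after each start, were read for the 30 members that matched by symbol. DERL1, DERL3 and PDIA3 were not matched. The ER stress response element searched, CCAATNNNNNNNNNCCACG on both strands, was in 7 of the 30 windows, which is 23.3%, against 0.0806% of 27305 windows of all genes. The related element, ATTGG and CCACG with any 1 base between them, was in 3 of the 30, HERPUD1, HYOU1 and SDF2L1, against 0.0549% of all windows. TGACGTGG, the core of an element bound by XBP1, was in 3 of the 30, DNAJC10, HYOU1 and VCP, against 0.795% of all windows. All searches covered both strands, and in HYOU1 the TGACGTGG match overlaps the related element. A match describes the letters in the window and is not evidence of a bound site.

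The windows of HSPA5, of XBP1 and of VCP are shown because HSPA5 is the standard readout, XBP1 is a factor of the response and VCP was the member that passed the test. Capitals mark matches to the 3 elements above, and each window is read 5′ to 3′ on the gene's own strand, which is the minus strand for all of them. They lie at chr9:125241294-125241593 for HSPA5, chr22:28800520-28800819 for XBP1 and chr9:35072576-35072875 for VCP.
HSPA5: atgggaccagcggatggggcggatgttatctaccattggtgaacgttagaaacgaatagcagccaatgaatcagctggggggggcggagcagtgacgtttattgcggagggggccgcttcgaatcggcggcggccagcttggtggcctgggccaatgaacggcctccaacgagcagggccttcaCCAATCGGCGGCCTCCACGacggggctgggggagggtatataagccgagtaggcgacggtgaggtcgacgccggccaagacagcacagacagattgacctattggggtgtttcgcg
XBP1: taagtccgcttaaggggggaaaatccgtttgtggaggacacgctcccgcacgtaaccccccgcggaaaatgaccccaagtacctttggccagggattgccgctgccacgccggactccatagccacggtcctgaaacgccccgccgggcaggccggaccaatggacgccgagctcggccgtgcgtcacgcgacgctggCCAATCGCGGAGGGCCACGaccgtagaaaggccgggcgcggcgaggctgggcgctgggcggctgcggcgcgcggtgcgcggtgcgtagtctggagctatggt
VCP: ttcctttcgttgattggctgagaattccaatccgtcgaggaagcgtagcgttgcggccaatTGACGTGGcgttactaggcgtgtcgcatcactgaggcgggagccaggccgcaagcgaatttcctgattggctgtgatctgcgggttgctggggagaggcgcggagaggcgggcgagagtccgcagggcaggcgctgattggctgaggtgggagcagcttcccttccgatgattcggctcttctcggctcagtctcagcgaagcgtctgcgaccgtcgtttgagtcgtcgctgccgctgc
The ER stress elements of the 7 windows, turned to the same strand with the fixed letters in capitals, differ in the 9 bases between the fixed ends. HSP90B1 holds a pair of them.
CALR element: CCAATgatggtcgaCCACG
CANX element: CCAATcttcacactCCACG
CRELD2 element: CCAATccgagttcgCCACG
ERO1B element: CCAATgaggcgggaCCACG
HSP90B1 far element: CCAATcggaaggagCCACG
HSP90B1 near element: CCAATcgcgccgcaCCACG
HSPA5 element: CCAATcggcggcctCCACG
XBP1 element: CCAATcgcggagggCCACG
The VCP match lay at positions -189 to -182 from the RefSeq start, and the same letters with the next C also match the antioxidant response element core TGACNNNGC, as they do in DNAJC10. That core, associated with NRF2, was in 7 of the 30 member windows and in 13.6% of all windows.

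Levels are in TPM, a gene's length-scaled share of the transcripts in its library, which can be compared between genes. Of the 33 members, 11 had means of at least 100 TPM in both groups, 17 lay between 10 and 100 TPM, 4 between 1 and 10 TPM, and DERL3 lay under 1 TPM. The disulfide isomerase gene P4HB was the most abundant, at 743 ± 8.80 TPM in CBR-470-1 and 779 ± 5.16 TPM in DMSO (SD, n = 3 each, as for every mean below). HSP90B1, CANX, CALR and PDIA3 followed at 410 to 535 TPM in CBR-470-1 and 415 to 477 TPM in DMSO. HSP90B1 and CANX stood next to each other in this order, and their values overlapped in DMSO. The 33 genes summed to 4484, 4522 and 4452 TPM in the CBR-470-1 libraries, against 4366, 4346 and 4231 TPM in the DMSO libraries. The CBR-470-1 sums all lay above the DMSO sums, with a ratio of means of 1.04.

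**Figure D1:**
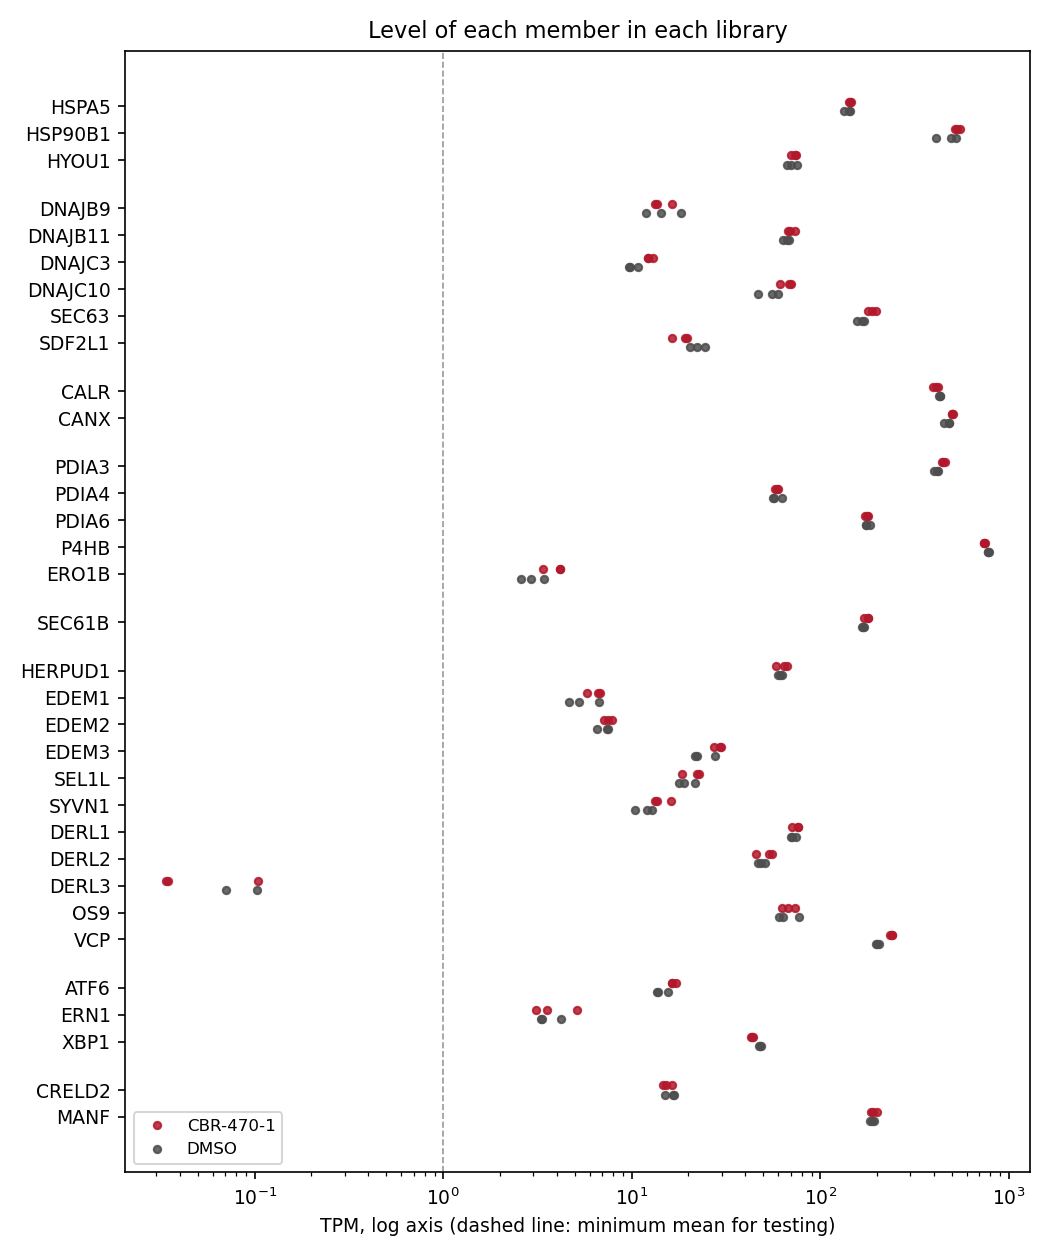
TPM on a log axis for each of the 33 genes in each library, red for the 3 CBR-470-1 libraries and grey for the 3 DMSO libraries, grouped by role as in the text, with values of 0 not drawn. The genes span from P4HB at 743 TPM to DERL3 at 0.0579 TPM, both in CBR-470-1, and most pairs of groups lie close together.

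Differences between the groups were tested as log2 fold changes of TPM + 1, CBR-470-1 over DMSO, with limma across all 13470 rows that had a mean of at least 1 TPM. A gene was called when its p-value, adjusted over all of those rows by the Benjamini-Hochberg method, was under 0.05. Of the 33 members 32 reached the minimum, DERL3 being the exception. Of the 32, 1 rose and 0 fell, beside 1.97% of all tested rows called in either direction, 1.13% higher and 0.839% lower. The member that rose was VCP. The members' log2 fold changes ran from -0.27 to 0.30, with a median of 0.07 beside 0.03 over all tested rows. With each library centred on its median these were 0.03 and -0.0090. Of all tested rows 152 were called higher and 113 lower, against 124 and 237 with that centring and 154 and 215 with a correction for GC content and length, and VCP was called in each of those fits. 25 of the 32 were positive, beside 7667 of the 13470 rows, and 24 of the 32 were under 0.2 in absolute size, beside 9958 of the 13470. The groups did not overlap for 9 members with CBR-470-1 higher and for 4 with CBR-470-1 lower, where all tested rows gave 17.7% and 12.5%, or 30.2% in either direction. The 9 were VCP, DNAJC10, DNAJC3, SEC63, CANX, PDIA3, SEC61B, SYVN1 and ATF6, and the 4 were SDF2L1, CALR, P4HB and XBP1. At an unadjusted p under 0.05 there were 10 members higher and 3 lower, against 13.8% and 9.65% of all tested rows.

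**Figure D2:**
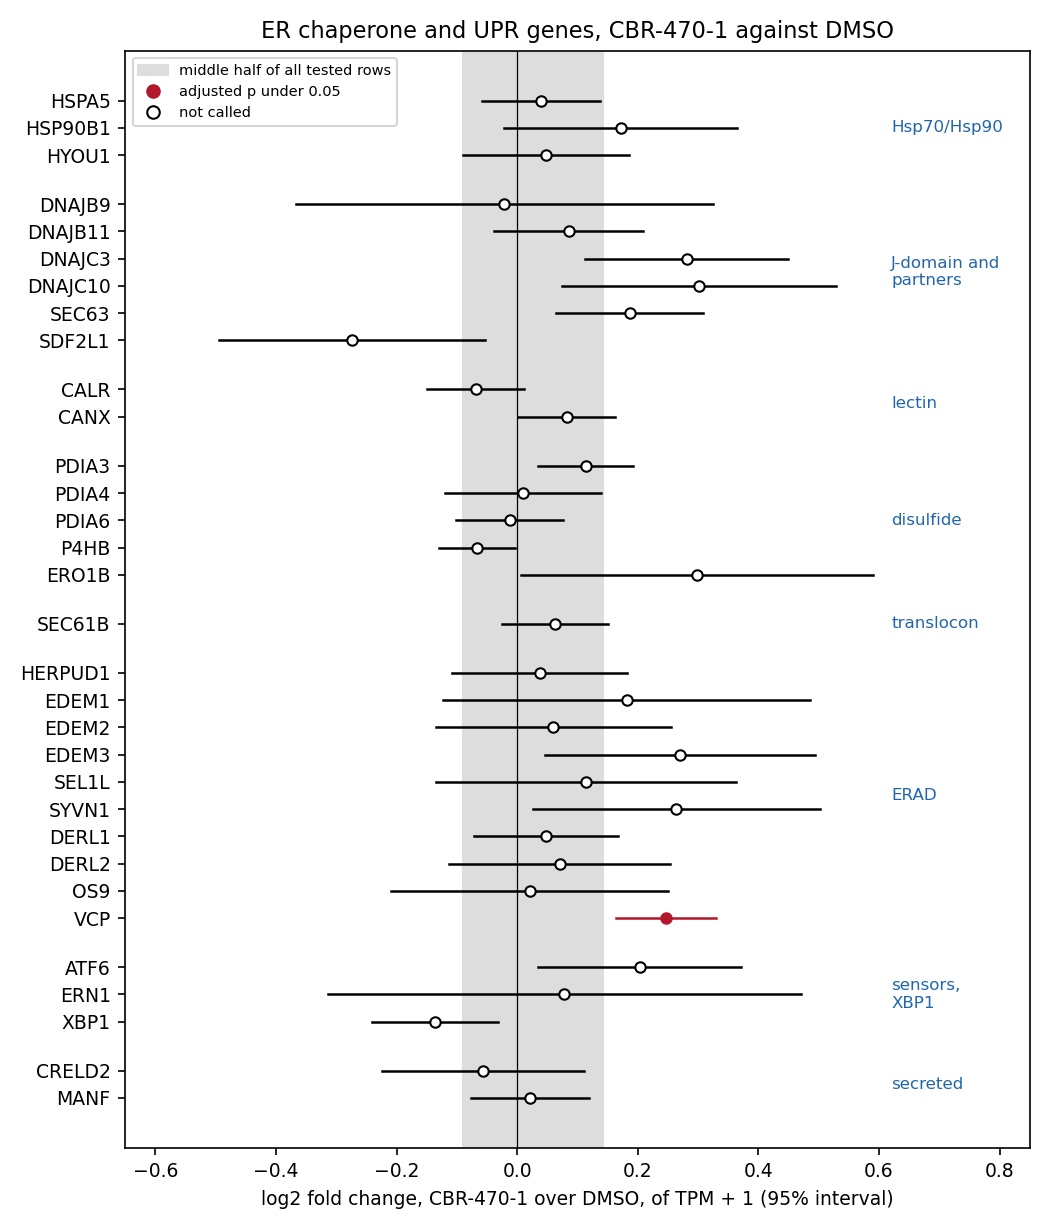
Log2 fold change of TPM + 1, CBR-470-1 over DMSO, for the 32 tested genes by role, with 95% intervals from limma. The grey band runs from the lower to the upper quartile of all tested rows. VCP, in red at 0.25, is the called gene, and open points are genes that were not called.

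VCP encodes the cytosolic AAA ATPase, also called p97, that pulls ubiquitylated proteins out of the ER membrane and serves many other degradation routes. It had 234, 241 and 241 TPM in the CBR-470-1 libraries, against 205, 199 and 199 TPM in the DMSO libraries. The groups did not overlap, and the coefficient of variation was 1.81% in CBR-470-1 and 1.75% in DMSO. The ratio of means was 1.19 and the log2 fold change 0.25 (SE 0.0355, 95% interval 0.16 to 0.33, limma adjusted p = 0.0267). In every fit that left out 1 library, VCP was not called, with log2 fold changes of 0.24 to 0.26 and limma adjusted p-values of 0.0597 to 0.120. Nor was it called without limma's variance trend (limma adjusted p = 0.0904). Fits with the replicate numbers as a block, alone or with the GC and length correction, did not call it either. The gene spans chr9:35056064-35073249 on the minus strand in GENCODE 29 on GRCh38. Values summed over transcripts do not separate its exons or UTRs.

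None of the lumenal Hsp70 and Hsp90 chaperones passed the test. HSPA5, the Hsp70 that binds the sensors in unstressed cells, had 145, 145 and 142 TPM in CBR-470-1, against 144, 142 and 134 TPM in DMSO. The groups overlapped, and the 95% interval of the log2 fold change of 0.04 ran from -0.06 to 0.14 (limma adjusted p = 0.60). HSP90B1, the Hsp90 protein of the ER known as GRP94, had 531, 553 and 520 TPM in CBR-470-1, against 492, 525 and 414 TPM in DMSO. DMSO replicate 3 was the lowest value, DMSO replicate 2 lay inside the treated range, and the log2 fold change was 0.17 (limma adjusted p = 0.260). It was 0.0726 without DMSO replicate 3 and 0.0871 with a correction for GC content and length. HYOU1, a large Hsp70 relative that releases nucleotide from HSPA5, averaged 72.8 ± 2.51 TPM in CBR-470-1 and 70.5 ± 4.45 TPM in DMSO.

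The J-domain proteins, which drive the ATPase cycle of HSPA5, and their partner SDF2L1 differed in sign among themselves and none was called. DNAJC10, a reductase that breaks disulfides for ERAD, had 60.9, 70.4 and 68.2 TPM in CBR-470-1, against 55.7, 59.4 and 46.7 TPM in DMSO. The groups did not overlap, and the log2 fold change was 0.301 (95% interval 0.07 to 0.53, limma adjusted p = 0.127). That was the largest of all members, barely above ERO1B at 0.298, and the order depended on the processing. With 0.1 TPM added before taking logs in place of 1, ERO1B stood at 0.38 and DNAJC10 at 0.31. With the GC and length correction SYVN1 was the largest at 0.29, with DNAJC10 at 0.16. DNAJC3, known as p58IPK, had a log2 fold change of 0.28 and the lowest adjusted p after VCP (12.5 ± 0.404 TPM in CBR-470-1, 10.1 ± 0.609 TPM in DMSO, limma adjusted p = 0.0846). SEC63, the J-domain subunit of the translocon, averaged 188 ± 9.21 TPM in CBR-470-1 and 165 ± 7.13 TPM in DMSO (log2 fold change 0.19, limma adjusted p = 0.0981). With the GC and length correction its log2 fold change was 0.07 (limma adjusted p = 0.549). SDF2L1, which forms a complex with DNAJB11, had 19.6, 19.2 and 16.3 TPM in CBR-470-1, against 22.3, 20.5 and 24.5 TPM in DMSO. Every treated value was under every DMSO value, with the most negative log2 fold change of the members, -0.27 (95% interval -0.49 to -0.05, limma adjusted p = 0.143). DNAJB11 averaged 70.2 ± 2.78 TPM in CBR-470-1 and 66.2 ± 2.65 TPM in DMSO. DNAJB9, known as ERdj4, had 16.3, 13.6 and 13.4 TPM in CBR-470-1, against 11.9, 14.3 and 18.2 TPM in DMSO. The treated values lay within the wider DMSO range, and the 95% interval of its log2 fold change ran from -0.37 to 0.32.

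**Figure D3:**
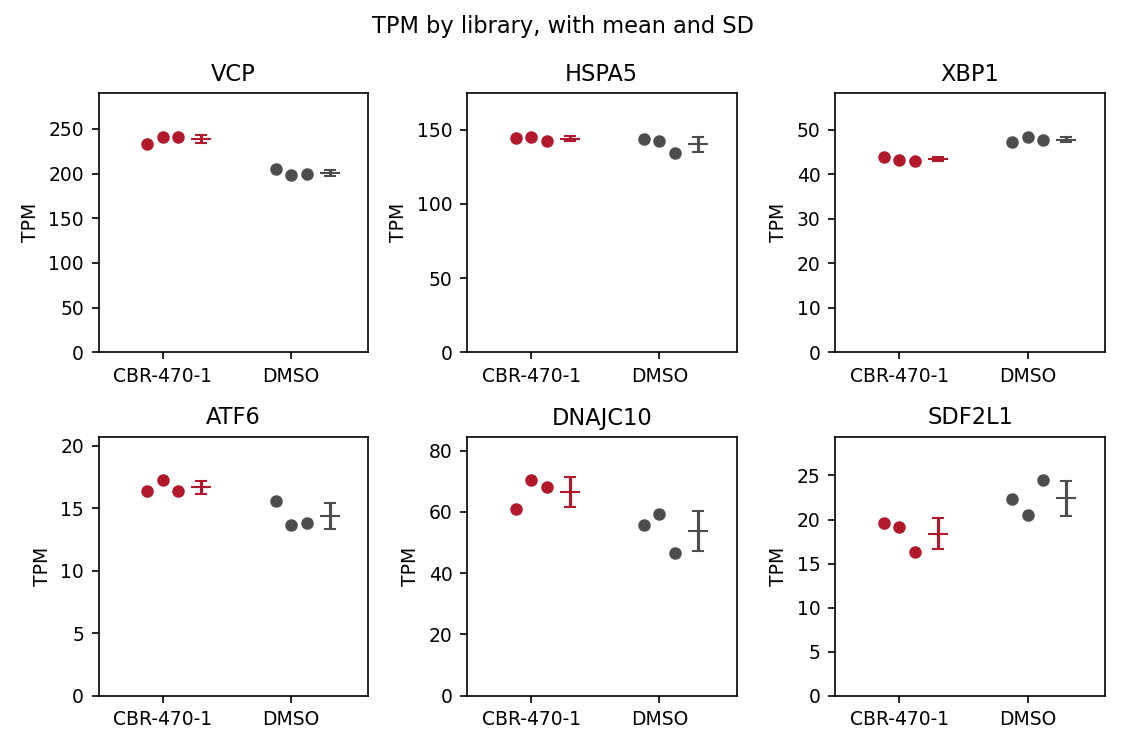
TPM of 6 genes in each library on axes that start at 0, with CBR-470-1 on the left in red and DMSO on the right in grey. Points are libraries, and the bars beside them are the mean and SD (n = 3). Of these genes VCP passed the test, the HSPA5 groups overlap, and XBP1 and SDF2L1 have their treated values under the DMSO values.

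The lectin chaperones CANX and CALR, which hold glycoproteins through their trimmed glycans, did not pass the test and lay on opposite sides of 0, except that CANX stood at -0.00085 with the GC and length correction. CANX, the membrane-bound calnexin, had 501, 506 and 498 TPM in CBR-470-1, against 485, 456 and 480 TPM in DMSO. The groups did not overlap, with a log2 fold change of 0.08 (95% interval 0.0018 to 0.16, limma adjusted p = 0.205). CALR, soluble calreticulin, averaged 410 ± 12.5 TPM in CBR-470-1 and 430 ± 4.01 TPM in DMSO (log2 fold change -0.07, limma adjusted p = 0.276). Its treated values all lay under its DMSO values. PDIA3, the disulfide isomerase that works with these lectins, averaged 449 ± 7.36 TPM in CBR-470-1 and 415 ± 10.6 TPM in DMSO (limma adjusted p = 0.111). Reads of PDIA3 can be shared with its pseudogenes, whose rows PDIA3P1 and PDIA3P2 lay between 1.01 and 5.09 TPM. The ratio of PDIA3 to CALR was 1.06, 1.15 and 1.08 in the CBR-470-1 libraries, against 0.980, 0.981 and 0.933 in the DMSO libraries. PDIA3 thus stood above CALR in each treated library and below it in each DMSO library, a pair picked after their values were seen and given without a test. With the GC and length correction the log2 fold changes were 0.05 for PDIA3 and -0.04 for CALR, against 0.11 and -0.07 without it.

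None of the other disulfide genes passed. P4HB, the classical protein disulfide isomerase, had a log2 fold change of -0.07 (95% interval -0.13 to -0.0040, limma adjusted p = 0.191), against -0.0242 with the GC and length correction (limma adjusted p = 0.679). PDIA4 and PDIA6 had 0.01 and -0.01, with intervals within 0.14 of 0 on either side. ERO1B, an oxidase that recharges the isomerases, had 4.17, 3.38 and 4.14 TPM in CBR-470-1, against 2.94, 3.43 and 2.59 TPM in DMSO. These low values overlapped, with a log2 fold change of 0.30 (95% interval 0.0064 to 0.59, limma adjusted p = 0.205). SEC61B, a small subunit of the channel through which proteins enter the ER, had 171, 179 and 179 TPM in CBR-470-1, against 169, 166 and 171 TPM in DMSO. The groups did not overlap, by a narrow margin, and the gene was not called (log2 fold change 0.06, limma adjusted p = 0.357).

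All 10 tested ERAD genes had positive log2 fold changes, from 0.02 to 0.27, but OS9 turned negative with median centring or quantile normalization, and DERL1, DERL2 and SEL1L did so with a correction for GC content and length. VCP was the called gene among them. The 11 ERAD genes summed to 566, 580 and 575 TPM in CBR-470-1, against 523, 528 and 504 TPM in DMSO, and VCP made up the largest part of each sum. EDEM3, a mannosidase that marks glycoproteins for disposal, had 29.5, 27.2 and 29.8 TPM in CBR-470-1, against 22.3, 27.6 and 21.8 TPM in DMSO. DMSO replicate 2 lay inside the treated range, and the gene was not called (limma adjusted p = 0.152). Its relative EDEM1 was lower in level, at 6.39 ± 0.542 TPM in CBR-470-1 and 5.56 ± 1.05 TPM in DMSO, and EDEM2 stood at 7.48 ± 0.340 TPM in CBR-470-1 and 7.14 ± 0.505 TPM in DMSO. SYVN1, the HRD1 ubiquitin ligase, averaged 14.3 ± 1.54 TPM in CBR-470-1 and 11.7 ± 1.18 TPM in DMSO (log2 fold change 0.26, limma adjusted p = 0.178), and its adaptor SEL1L averaged 21.2 ± 2.44 TPM in CBR-470-1 and 19.5 ± 2.06 TPM in DMSO. HERPUD1, a membrane scaffold of the same ligase, had a log2 fold change of 0.04 with a 95% interval from -0.11 to 0.18 (limma adjusted p = 0.748). OS9, a lectin that brings substrates to it, had 0.02. The derlins are membrane proteins through which substrates leave the ER. DERL1 averaged 74.4 ± 3.14 TPM in CBR-470-1 and 71.9 ± 2.26 TPM in DMSO, and DERL2 averaged 51.5 ± 4.95 TPM in CBR-470-1 and 48.9 ± 2.29 TPM in DMSO. DERL3 was listed at 0.105, 0.0347 and 0.0340 TPM in CBR-470-1 and at 0.103, 0.0702 and 0 TPM in DMSO, too low to test.

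The sensors and XBP1 were not called. ATF6, the sensor that is cut in the Golgi to release a transcription factor, had 16.4, 17.3 and 16.4 TPM in CBR-470-1, against 15.6, 13.7 and 13.8 TPM in DMSO. The groups did not overlap (log2 fold change 0.20, 95% interval 0.04 to 0.37, limma adjusted p = 0.151). ERN1, which encodes the IRE1 sensor, had 3.12, 3.57 and 5.15 TPM in CBR-470-1, against 3.31, 3.36 and 4.23 TPM in DMSO. Replicate 3 was the highest library of each group, the groups overlapped, and the 95% interval of -0.31 to 0.47 was the widest of the members (limma adjusted p = 0.808). XBP1 had 43.8, 43.3 and 43.1 TPM in CBR-470-1, against 47.2, 48.5 and 47.8 TPM in DMSO. Every treated value lay under every DMSO value, with a ratio of means of 0.908 and a log2 fold change of -0.14 (95% interval -0.24 to -0.03, limma adjusted p = 0.134). The small secreted proteins CRELD2 and MANF, which leave the cell under ER stress, had log2 fold changes of -0.06 and 0.02. CRELD2 had 14.8, 16.4 and 15.2 TPM in CBR-470-1, against 16.7, 15.1 and 16.5 TPM in DMSO, and these ranges overlapped (limma adjusted p = 0.667).

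The 10 genes whose promoter window held either ER stress element had a median log2 fold change of 0.04, with 6 positive and 4 negative. The 20 matched genes with neither had a median of 0.08, with 17 positive and 3 negative. No test was made between these sets.

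The members' differences ran along with the length of their transcripts. Across the 32 tested genes the Spearman correlation of the log2 fold change with the length of the longest GENCODE 29 transcript was 0.77, and with its GC content -0.57. Over the 13442 tested rows that had both values the correlations were 0.18 and -0.35. These are correlations across genes of the same 6 libraries, which are not independent points. The longest annotated transcript, which has 20129 bases for DNAJC10, need not be the one the cells make. The 9 members over 5000 bases, among them DNAJC10, DNAJC3, EDEM3, SEC63 and ATF6, were all positive, DERL1 and SEL1L turning negative after the correction described next, with a median of 0.19, against 0.07 for all 3818 tested rows of that length. The 6 members of 2500 bases or less, among them SDF2L1, XBP1, CALR and SEC61B, had a median of -0.02, with 3 positive and 3 negative, and the 4226 tested rows of that length also had -0.02. When a trend with GC content and length was removed from each library, the log2 fold change of VCP was 0.24 (SE 0.0309, limma adjusted p = 0.0172). With the same correction DNAJC10 stood at 0.16, DNAJC3 at 0.17, ATF6 at 0.09 and HSPA5 at -0.00086, and 19 of the 32 members were positive. The members' correlation with length was then 0.51 and that with GC content -0.15. XBP1 then had -0.21 (limma adjusted p = 0.0603) and SDF2L1 had -0.17.

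**Figure D4:**
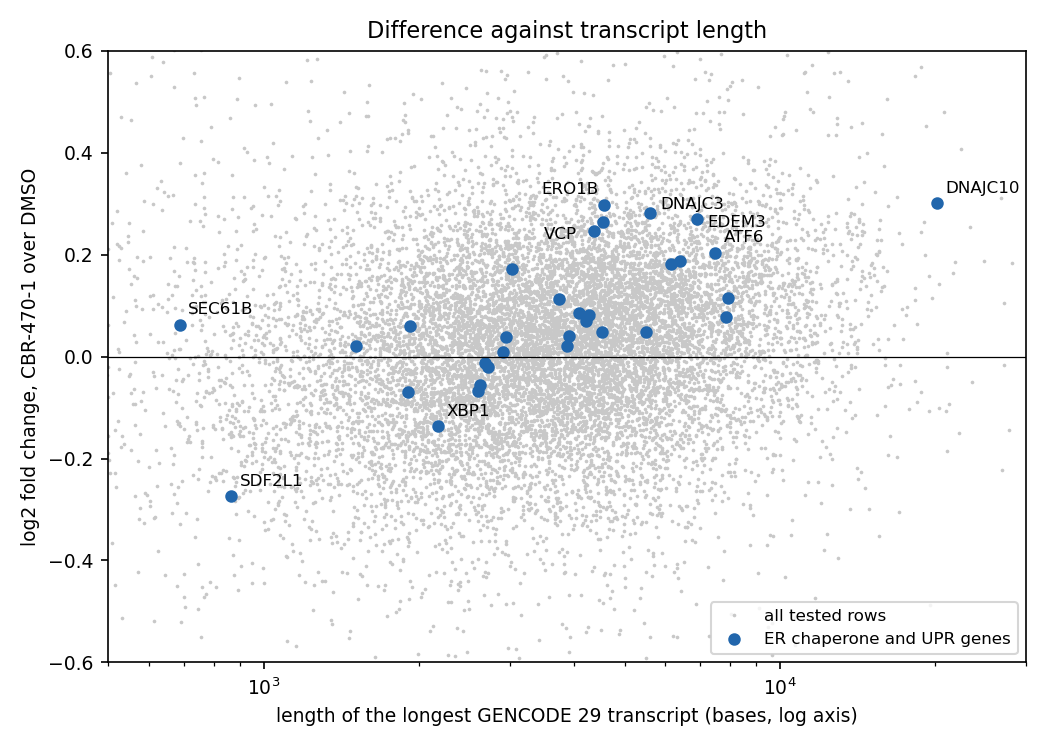
Log2 fold change of TPM + 1, CBR-470-1 over DMSO, against the length of the longest transcript on a log axis, for the 32 tested members in blue and all tested rows in grey, with 607 rows outside the axes not drawn. Of the 6 members of 2500 bases or less 3 lie below 0, among them SDF2L1 and XBP1, and 3 above it, among them SEC61B, while the 9 over 5000 bases, such as DNAJC10, EDEM3 and ATF6, lie above it before any correction.

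Other genes of the same pathway were read from 8 lists, chosen by function with earlier results of these data known. Of their 129 genes 122 were tested, and 0 rose and 1 fell, beside 1.13% and 0.839% of all tested rows. Their median log2 fold change was 0.06, beside 0.03 over all tested rows. The gene that fell was CHAC1, a glutathione-degrading enzyme induced downstream of PERK and ATF4, with 1.2, 0.931 and 0.911 TPM in CBR-470-1, against 2.18, 2.62 and 2.53 TPM in DMSO (log2 fold change -0.78, limma adjusted p = 0.0377). The groups lay far apart, though the gene lay near the minimum level for testing, and its ratio of means was 0.415. Its log2 fold change depended on the pseudocount, at -1.20 with 0.1 TPM and -0.31 with 5 TPM, and it was called with both. CHAC1 was not called without the minimum level (limma adjusted p = 0.0659), nor in any fit that left out 1 library (log2 fold change -0.84 to -0.74, limma adjusted p from 0.0733 to 0.130). Of the 12 PERK branch genes the next largest difference was that of DDIT3, which encodes CHOP, at 5.23 ± 0.633 TPM in CBR-470-1 and 4.06 ± 0.339 TPM in DMSO (log2 fold change 0.30, limma adjusted p = 0.161). ATF4 itself had 341, 336 and 341 TPM in CBR-470-1, against 357, 355 and 353 TPM in DMSO, and was not called (limma adjusted p = 0.259). EIF2AK3, the PERK sensor, averaged 21.3 ± 3.55 TPM in CBR-470-1 and 18.4 ± 2.93 TPM in DMSO, with overlapping libraries.

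The other 7 lists held no called gene. Among 23 tested ERAD genes the largest differences were those of TMUB1 at -0.29 and NPLOC4 at 0.22. NPLOC4 and UFD1 encode the pair of adaptors through which VCP takes ubiquitylated ERAD substrates, UFD1, listed under its older symbol UFD1L, being named after its values were seen. NPLOC4 had 313, 323 and 339 TPM in CBR-470-1, against 293, 260 and 284 TPM in DMSO (limma adjusted p = 0.0778), and UFD1 had 124, 115 and 117 TPM in CBR-470-1, against 110, 94.8 and 102 TPM in DMSO (limma adjusted p = 0.109). Neither gene's groups overlapped, and neither was called. Of the 23 tested genes in this list 7 had CBR-470-1 higher without overlap and 2 lower, beside 17.7% and 12.5% of all tested rows. Among 23 other isomerases the largest differences were FKBP14 at 0.37 and PDIA5 at 0.23, and among 7 further HSPA5 co-factors HSPA13 at 0.26 and DNAJB14 at 0.15. In the calnexin cycle list UGGT2, a folding sensor that adds glucose back to glycans, had 0.38 and the mannosidase gene MAN1B1 had -0.31. In the oligosaccharyltransferase list MAGT1 had 0.24 and TMEM258 had -0.23, and in the translocation list SEC61A2 had -0.25 and SSR1 had 0.22. In the list of other sensors and their processing enzymes TRAF2, an adaptor of IRE1, had -0.38 and CREB3L4 had -0.21. The limma adjusted p-values of these 12 genes ran from 0.0592 to 0.350.

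Columns summed to 972453 to 973696 TPM, the correlation of log2 values between libraries ran from 0.986 to 0.991, and 3.84% to 4.40% of the total came from mitochondrially encoded genes. No library had the same values as another. Adrenergic neuroblastoma markers were present in every library, with MYCN at 1078 to 1130 TPM in CBR-470-1 and at 1134 to 1236 TPM in DMSO. Of those 15 markers 5 were positive and 10 negative, beside 7667 and 5803 of all 13470 tested rows. Their levels summed to 3643 to 3679 TPM in CBR-470-1 and to 3667 to 3915 TPM in DMSO. Beside 1.13% of all tested rows called higher and 0.839% called lower, STMN2 rose (log2 fold change 0.38, limma adjusted p = 0.0233), and DBH (-0.53, limma adjusted p = 0.0247) and CHGA (-0.23, limma adjusted p = 0.0468) fell. The part of these shifts in the members' differences was not tested. The 11 blood and epithelial markers summed to 1.05 to 1.84 TPM in CBR-470-1 and to 0.976 to 1.55 TPM in DMSO, with CD3E, HBB and KRT5 at 0 in all libraries. The 10 mesenchymal and Schwann-like markers summed to 181 to 191 TPM in CBR-470-1 and to 164.6 to 165.3 TPM in DMSO, and their part in the members' differences was not tested. Most of that sum was VIM, at 144 ± 5.28 TPM in CBR-470-1 and 125 ± 0.963 TPM in DMSO. Of the 6 tested markers of this list 3 were positive and 3 negative, PRRX1 standing at -0.26, and none was called. The response to the compound was visible in these libraries at other genes, as NQO1, a quinone reductase induced by NRF2, stood at 66.2 ± 4.59 TPM in CBR-470-1 and 4.66 ± 0.817 TPM in DMSO. No read numbers stand behind TPM values, which leaves the depth of each library unknown. In such bulk RNA, fewer cells of a kind cannot be told apart from less RNA per cell. The p-values weigh the difference between the groups against the spread within them, which limma moderates across genes, and they cover only these 6 libraries.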

How the data were processed

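RNA was measured in 6 libraries of IMR32 cells, 3 given CBR-470-1 and 3 given DMSO. Per the labels' protocols, an RNeasy kit gave total RNA, from which polyA RNA was selected for NEBNext Ultra libraries. Per the submitters' processing notes, bcl2fastq and Salmon 0.7.2 were used with GRCh38. Not given in the sources used here are the transcript annotation, Salmon's options and how gene values were formed from transcripts. The values deposited by the authors are TPM per gene symbol. TPM keeps no read count, so neither counting error nor a detection limit can be given.

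From the deposited TPM, log2(TPM + 1) was computed, rows whose mean reached 1 TPM were kept, and CBR-470-1 was compared with DMSO with limma 3.58.1 in R 4.3.3 (empirical Bayes with a variance trend, two-sided, Benjamini-Hochberg adjustment over all 13470 rows, threshold 0.05). A fold change on the log2(TPM + 1) scale understates the change of low genes. An exact permutation test of 3 against 3 libraries reaches p = 0.1 at the lowest, and no single gene was tested outside the fit across genes. The fit was tested on simulated data with known changes, but no outcome of that test is given here, and no result above rests on it. Lengths and GC content came from GENCODE 29, and 13442 of the tested rows had both. The correction for them used a spline of GC content and a spline of log2 length, with 5 degrees of freedom each. These were fitted together in each library to the genes' deviations from their means over all libraries, and the fitted trend was removed. Promoter windows were RefSeq sequences.

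All 33 members are accounted for. Values of every library were given for called members, for the member with the largest log2 fold change in each role, and for HSPA5, XBP1, ATF6 and ERN1. Of the other lists, called genes and the 2 largest differences were named. SDF2L1, DNAJB9, ATF4, ASNS, EIF2AK3 and UFD1, and the details given for other genes, were chosen after their values were seen. The members and lists were chosen with earlier results of these data known. Alternatives covered the pseudocount, the filter, scaling, the GC and length correction, the variance model, a replicate block, the threshold, and leaving out each library.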

Additional observations from a re-analysis of the deposited data

How the results depend on the processing

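The members' count of 1 was kept with pseudocounts of 0.1 and 5 TPM, with no filter or a minimum of 5 TPM, and with every scaling tried. It was 0 without the variance trend, with the replicate block, with the block and the GC and length correction, at an adjusted p under 0.01 and in each fit that left out 1 library (0 to 0), and 13 at an unadjusted p under 0.05. VCP then had adjusted p-values of 0.0904 without the trend, 0.116 with the replicate block and 0.0969 with the block and the correction. The members' median was 0.0291 with median centring and 0.0292 with the GC and length correction, alone or with the block. The count over all rows was 82 with no filter, 428 at 5 TPM, 83 without the trend, 17 with the replicate block, 15 with the block and correction, 22 at an adjusted p under 0.01, 3163 unadjusted, and 18 to 82 on leaving out 1 library. The count among other ER genes was 2 with median centring and with the correction, 34 unadjusted, and 0 with no filter, with the replicate block, with the block and correction, at an adjusted p under 0.01 and on leaving out 1 library (0 to 0). With the correction the gene gained was ASNS, an asparagine synthetase induced by ATF4 (log2 fold change -0.25, adjusted p = 0.0339, against 0.0688 without it). CHAC1 had adjusted p-values of 0.127 with the replicate block and 0.117 with the block and correction. At 5 TPM it was 1, but the gene was SSR1, since CHAC1 lies under that minimum.

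Among uncalled members, the sign turned with the GC and length correction, with or without the replicate block, for CANX (-0.00085), DERL1 (-0.0332), DERL2 (-0.0244), DNAJB11 (-0.0115), HSPA5 (-0.00086) and SEL1L (-0.0087). Median centring turned MANF (-0.0157), OS9 (-0.0167) and PDIA4 (-0.0273), and quantile normalization turned OS9 (-0.0032) and PDIA4 (-0.0088). Leaving out 1 library gave ranges that crossed 0 for DNAJB9 (-0.16 to 0.13), ERN1 (-0.0889 to 0.20), HERPUD1 (-0.0040 to 0.095), MANF (-0.0066 to 0.0426), OS9 (-0.0486 to 0.12), PDIA4 (-0.0166 to 0.0569) and PDIA6 (-0.0250 to 0.0081). The causes were not tested. Whether same-numbered libraries were paired is not known. Their deviations from the group means correlated at -0.138, -0.0059 and -0.0318, and CBR-470-1 replicate 1 correlated best with DMSO replicate 3 (0.136). Deviations within a group of 3 libraries sum to 0, so these values cannot settle the pairing. Depth is unknown, which limits what can be said of low genes such as DERL3.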
